A study of Mus musculus with 60 samples.

Results

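Plin4 encodes perilipin 4, formerly S3-12, a protein that coats lipid droplets. The platform's table of probes and genes was searched for both names, and 1 of its 45281 probes was annotated to the gene, probe ILMN_2588249. The gene was taken up because its signal had moved in these same arrays, so that all of its levels and differences below are descriptions and carry no p-value. Its mean level lay at the 68.7th percentile of the 44236 probes kept, and it was brighter than the 25th percentile of its array on 59 of 60 arrays.

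The arrays held RNA from the striatum of male C57BL/6J mice aged 8 to 10 weeks, with the RNA of 2 mice pooled on each array. Mice received 1 intraperitoneal injection of saline, of ketamine at 20 mg/kg, of the adamantane memantine at 15 mg/kg, or of PCP, phencyclidine, at 5 mg/kg, while naive mice received none. Striata were collected at 4 times, 1, 2, 4 and 8 h, so that 5 treatments gave 20 groups of 3 arrays. Ketamine, memantine and PCP block the channel of the NMDA receptor, the glutamate receptor that lets calcium into neurons. They were given at different doses, so that their values stand here side by side. Because whole striatum was used, a larger share of cells that express Plin4 and more Plin4 mRNA in each such cell cannot be told apart.

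Perilipins sit on the surface of lipid droplets, the organelles in which cells store triglyceride and sterol esters, and control the access of lipases to the stored fat. Plin4 was first described in adipocytes, where it coats small nascent droplets, and it is also made in heart and skeletal muscle. Its protein is built largely of many near-identical repeats that fold into a long amphipathic helix on the droplet surface. Lipid droplets in the brain are best known from glia and from the ependymal lining.

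Plin4 lies on chromosome 17 of GRCm38.p6, at positions 56100587 to 56109948 on the minus strand, and its gene model spans 9362 bases. Its neighbour Plin5 lies at positions 56111597 to 56117606 of the same chromosome. The promoter window of Plin4 in the RefSeq table, chr17:56109733-56110032 on the minus strand, is shown because glucocorticoid-responsive genes and PPAR targets were measured beside it. It runs from 250 bases before the annotated start to 50 bases after it. That start lies inside the span of the gene model, and the capitals mark its match to the TATA motif.
Plin4 promoter: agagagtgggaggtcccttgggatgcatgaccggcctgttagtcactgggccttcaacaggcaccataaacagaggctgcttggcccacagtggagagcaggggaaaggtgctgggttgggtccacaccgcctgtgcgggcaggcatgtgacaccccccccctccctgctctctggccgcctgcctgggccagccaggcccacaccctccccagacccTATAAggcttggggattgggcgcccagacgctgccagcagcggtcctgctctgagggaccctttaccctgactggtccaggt

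The window had a GC content of 65.0%. TATAA was found once, 32 bases upstream of the start (position -32), and 24.9% of the 32851 promoters in the table held it on either strand. The glucocorticoid response palindrome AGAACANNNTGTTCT had no match here, and was found in 0.00913% of promoters. Its half-site AGAACA (19% of promoters), the PPAR and RXR direct repeat AGGTCANAGGTCA (0.0396%), its half-site AGGTCA (16.3%) and the E-box CACGTG (7.15%) had no match on either strand either. The half-sites are contained in the longer motifs. These letters are thus not in the 300 bases shown, and nothing follows from that for more distant sites.

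Over all 60 arrays the Plin4 signal ran from an intensity of 148.9 on a naive array at 1 h to 3043 on a memantine array at 4 h. Levels below are log2 values of background-corrected and quantile-normalized signals, and are given for replicates 1, 2 and 3 in this order.

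At 1 h after injection Plin4 was low in all 5 treatments. The saline arrays gave 6.83, 7.25 and 6.78, and the naive arrays gave 6.66, 7.29 and 6.88. The ketamine arrays gave 6.96, 7.70 and 7.06. Ketamine thus held the highest single array of this time, while its other arrays lay inside the range of the controls. The memantine arrays gave 7.23, 7.16 and 7.25. The PCP arrays gave 7.06, 7.16 and 6.94. All 3 drugs overlapped with saline, and the differences from saline were 0.29 for ketamine, 0.26 for memantine and 0.10 for PCP, each with an SE of 0.35 in the fit over all arrays.

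At 2 h Plin4 was higher after each drug than after saline, with no overlap of the arrays. The saline arrays gave 7.31, 7.65 and 7.31, and the naive arrays 7.08, 7.02 and 7.09. The 3 naive arrays were the closest of any group, with an SD of 0.04. The ketamine arrays gave 8.59, 8.36 and 8.80, which is 1.16 ± 0.35 (SE, n = 3 against 3) above saline or 2.24-fold. Summed choroid plexus markers, which show how much ventricle lining a dissection took along, ran from 50900 to 66300 on these ketamine arrays and stood at 4630, 4410 and 54700 on the saline arrays. Ketamine replicate 2 also had the lowest sum of projection neuron markers, 30900. Saline replicate 3, with 54700, and saline replicate 1, with 4630, both had a Plin4 level of 7.31. High sums were thus found on all 3 ketamine arrays and on 1 saline array, and the part of dissection in the ketamine value was not tested. The memantine arrays gave 8.67, 8.51 and 8.98, with a difference from saline of 1.30 ± 0.35 or 2.47-fold. The PCP arrays gave 8.30, 8.17 and 8.80, with a difference of 1.00 ± 0.35 or 2.01-fold. The lowest drug array, PCP replicate 2, lay above the highest saline array, replicate 2. Of all probes kept, 5.97% had 3 ketamine arrays above all 3 saline arrays at this time, 4.91% had the same for memantine and 4.96% for PCP. Since Plin4 was selected on these arrays, nothing is read from its place among them.

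At 4 h the drugs stood furthest apart. The saline arrays gave 7.33, 7.55 and 6.68. The memantine arrays gave 8.94, 9.87 and 10.13, a mean of 9.65 ± 0.62 (SD, n = 3), which was the highest group mean of the 20. Memantine replicates 2 and 3 held the highest Plin4 levels on any array, and their intensities before normalization, 1538 and 3043, were 5.95 and 7.69 times the median signals of those arrays. The memantine difference from saline was 2.46 ± 0.35 (SE) or 5.52-fold. The PCP arrays gave 8.54, 8.87 and 8.97, with a difference of 1.61 ± 0.35 or 3.05-fold. PCP was the most even of the drug groups at this time, with an SD of 0.23. The ketamine arrays gave 7.61, 8.32 and 8.93, with a difference of 1.10 ± 0.35 or 2.15-fold. Ketamine replicate 1 lay only just above the highest saline array. Again no drug array overlapped with saline, and the share of probes with 3 drug arrays above all 3 saline arrays was 5.22% for ketamine, 5.94% for memantine and 5.49% for PCP.

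Saline replicates 1 and 3 at 4 h were the arrays with the lowest mean correlation to the others (0.940 and 0.934), and replicate 3 also had the highest median signal (646.1) and the lowest Plin4 level of the group. With both left out, which leaves saline replicate 2 alone at this time, the differences were 2.10 for memantine, 1.25 for PCP and 0.74 for ketamine. Leaving out 1 array at a time moved the memantine difference at 4 h between 2.21 and 2.82, the PCP difference between 1.36 and 1.79 and the ketamine difference between 0.78 and 1.44. The part of array quality in the 4 h values was not tested further.

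The naive arrays at 4 h gave 8.61, 6.98 and 7.51, the widest group of all with an SD of 0.83. Naive replicate 1 lay inside the ketamine range and above the lowest PCP array, 8.54, although these mice had not been injected. Saline thus lay below naive at this time, by 0.52 ± 0.35, and by 0.06 without naive replicate 1. Against naive, the 4 h differences were 1.95 for memantine, 1.09 for PCP and 0.59 for ketamine, and without naive replicate 1 they were 2.40, 1.55 and 1.04. Only the memantine arrays were all above the naive arrays at 4 h, as was the case for 4.7% of probes.

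At 8 h the controls were higher as well. The saline arrays gave 7.32, 8.46 and 8.58, and the naive arrays 7.48, 7.92 and 8.01. The memantine arrays gave 8.76, 8.32 and 9.42, and the PCP arrays 9.31, 8.54 and 8.82. Both drugs overlapped with saline, as saline replicates 2 and 3 lay above the lowest memantine array, 8.32, and replicate 3 above the lowest PCP array, 8.54. The differences from saline were 0.71 ± 0.35 for memantine and 0.77 ± 0.35 for PCP, and both were smaller without saline replicate 1, at 0.31 and 0.37. The ketamine arrays gave 7.88, 7.77 and 9.16, with a difference of 0.15 ± 0.35. Ketamine replicate 3 carried this value, which was -0.30 without it and -0.11 with the BeadChip as a block. Against the naive arrays, which were the more even control at this time, memantine and PCP did not overlap (shares of probes 4.38% and 3.89%), with differences of 1.03 and 1.09.

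**Figure D1:**
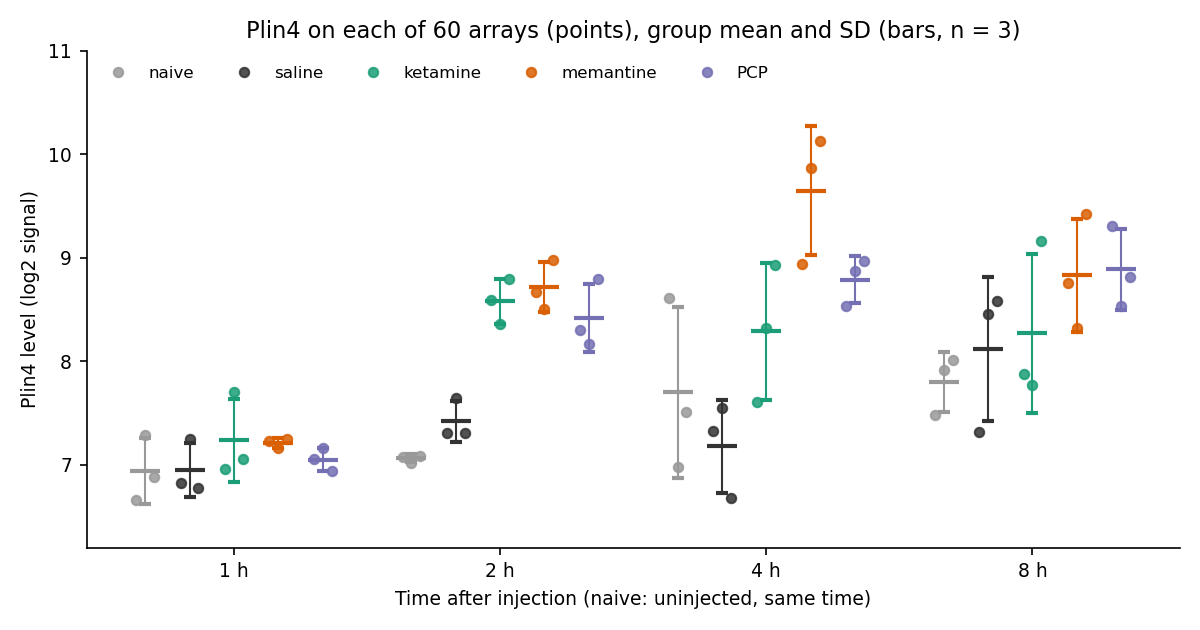
Plin4 level (log2 signal, vertical axis) on each array by time and treatment. Points are arrays in the order of replicates 1 to 3, long bars are group means and whiskers are SDs over 3 arrays. The drug arrays separate from saline at 2 and 4 h, memantine at 4 h reaches 10.13, and naive replicate 1 at 4 h stands at 8.61.

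Averaged over the 4 times, the Plin4 level was 8.60 after memantine, 8.29 after PCP, 8.09 after ketamine, 7.42 after saline and 7.38 in naive striatum. The average difference from saline was 1.19 ± 0.17 (SE, n = 12 against 12) for memantine, 0.87 ± 0.17 for PCP and 0.68 ± 0.17 for ketamine, or 2.27-, 1.83- and 1.60-fold. All 12 memantine arrays lay above the saline mean of their time, as did 11 of 12 PCP and 10 of 12 ketamine arrays. Saline and naive differed by 0.04 ± 0.17 on average, with 6 of 12 saline arrays above the naive mean of their time. At 2 h, however, all 3 saline arrays lay above the naive arrays, by 0.35 ± 0.35, as in 3.9% of probes.

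**Figure D2:**
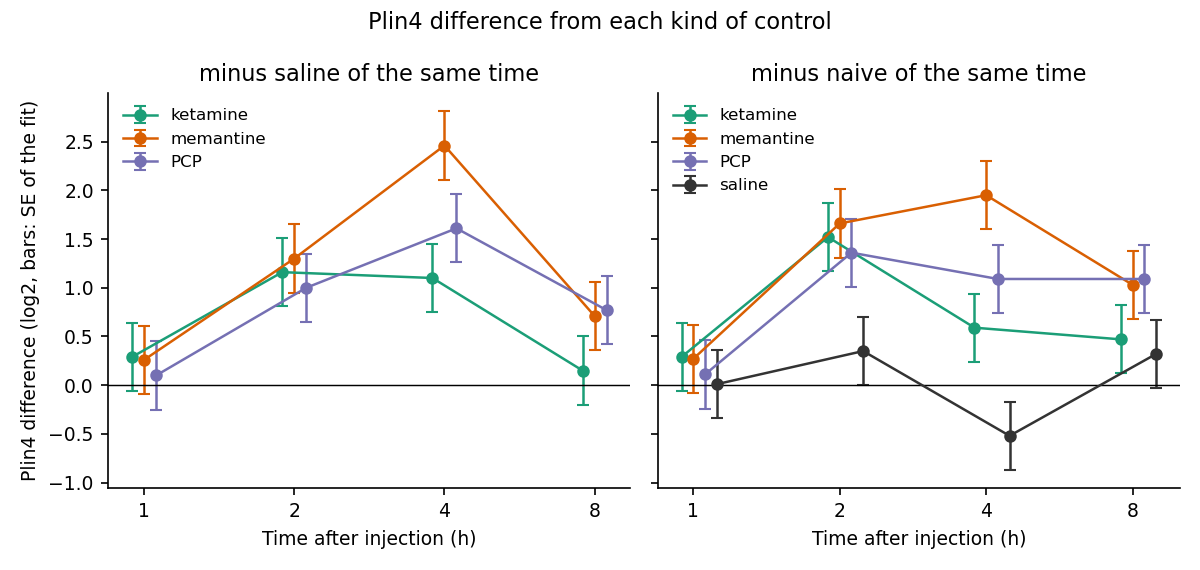
Plin4 difference in log2 units (vertical axis) from saline (left) and from naive arrays (right) of the same time, by hours after injection. Points are estimates from the fit over 60 arrays and whiskers are SEs. Against saline memantine peaks at 4 h with 2.46, and against naive arrays saline itself stands at -0.52 at this time.

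The drug groups followed different courses, read from values that stem from different doses. After memantine the group mean went from 7.21 at 1 h to 8.72 at 2 h, 9.65 at 4 h and 8.83 at 8 h. After PCP the means were 7.05, 8.42, 8.79 and 8.89, so that the mean at 8 h was not below that at 4 h. After ketamine they were 7.24, 8.58, 8.29 and 8.27. At 2 h the ranges of the 3 drugs overlapped, whereas at 4 h every memantine array was above every ketamine array (as in 6.79% of probes). The groups all but touched, with 8.94 on the lowest memantine array and 8.93 on the highest ketamine array, beside SDs of 0.62 and 0.66. The differences of 0.14 at 2 h and 1.36 at 4 h between memantine and ketamine are values at 15 and 20 mg/kg. Within presumed BeadChips ketamine minus memantine was 0.13 at 2 h, -0.01 at 4 h and 0.40 at 8 h, each from 1 pair of arrays. The difference at 4 h was thus not seen in its pair, memantine replicate 1 and ketamine replicate 3.

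In the order of the 20 group means, memantine 4 h was followed by PCP 8 h, memantine 8 h, PCP 4 h, memantine 2 h, ketamine 2 h, PCP 2 h, ketamine 4 h and ketamine 8 h, then by saline 8 h, naive 8 h, naive 4 h and saline 2 h. Below these came ketamine 1 h, memantine 1 h, saline 4 h, naive 2 h, PCP 1 h, saline 1 h and naive 1 h. The first 9 places were thus all held by drugs at 2 h or later, and the 1 h drug groups stood among the controls. The means ran over 2.71 log2 units, a 6.53-fold range, with a pooled SD of 0.45 within groups. Of the 19 pairs of neighbours in this order, only memantine 4 h and PCP 8 h, with a gap of 0.76, differed by more than both SDs, and even their ranges overlapped.

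Of the variance of Plin4 over the 60 arrays, time accounted for 36.5%, treatment for 31.3%, treatment by time for 14.5% and replicates for 17.7%. Groups together thus held 82.3%, a share that the choice of the gene on these arrays favoured. Its replicate SD of 0.45 was above the median probe's 0.30.

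Pairs of arrays of the same time were also compared within presumed BeadChips (6 arrays to a chip, 10 chips in all). Chips were assigned by the order of the samples and are named in no label, so that a shared hybridization is not known. For PCP minus saline these pairs gave 0.10 at 1 h, 1.5 at 2 h, 1.64 at 4 h and 1.51 at 8 h. For ketamine minus saline they gave 0.18, 1.28, 0.93 and -0.70 at the same times. Memantine shared a chip with saline of its time nowhere, and against naive arrays its pairs gave 0.59, 1.90, 1.52 and 1.94. Each of these values comes from 1 pair of arrays. In these pairs each drug was above its partner at 2 and 4 h, whereas ketamine at 8 h was below its saline partner. For memantine the partner was a naive array, so that its difference from saline was not seen within a chip. With the chip as a block the averaged differences were 1.19 for memantine, 0.94 for PCP and 0.64 for ketamine. Plin4 was weakly related to the brightness of an array, with a correlation of -0.10 with the log2 array median over 60 arrays and of -0.31 for deviations from group means.

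None of the other perilipins passed the test in any comparison with a drug. Plin2, the coat of droplets in most cells, differed by 0.47 between memantine and saline at 4 h (adjusted p = 0.249, limma over all probes), and Plin3, which also binds nascent droplets, by 0.72 (adjusted p = 0.0586). Plin5, the perilipin of oxidative tissue and next to Plin4 on the chromosome, differed by 0.48 (adjusted p = 0.279), and Plin1, the perilipin of mature adipocytes, by -0.14 (adjusted p = 0.885). None of the 4 passed the threshold of 0.05 in saline against naive either, and their median at 4 h after memantine, 0.48, stood beside a median of 0.01 over all probes. At this time 0.405% of probes were called higher with memantine and 0.31% lower. Group means at 4 h after memantine, after saline and in naive striatum were 7.62, 7.16 and 7.08 for Plin2. They were 8.78, 8.06 and 8.64 for Plin3, 7.44, 6.96 and 7.49 for Plin5, and 6.73, 6.88 and 7.02 for Plin1. Plin5 and Plin1 thus lay below naive after memantine, and Plin3 lay nearer to naive than to saline. A difference between the perilipins was not tested, as Plin4 was selected on its values.

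The remaining lists of lipid genes covered droplet proteins, triglyceride synthesis, lipolysis, fatty acid uptake, and PPAR receptors with their targets. With the perilipins, 68 of 76 genes were measured. At 4 h after memantine 4 of these 68 rose and none fell, with a median of 0.07. Of all probes 0.405% were called higher and 0.31% lower in this comparison, with a median of 0.01. Such shares, here and for the other lists, also count probes without a gene name, while each list gene is read by its brightest probe. List counts and probe shares are thus not of like sets. Pnpla2, the adipose triglyceride lipase that starts the breakdown of stored fat, rose by 1.22 (adjusted p = 0.00125), and by 0.78 without saline 4 h replicate 1. Slc27a3, a fatty acid transport protein with acyl-CoA synthetase activity, rose by 0.92 (adjusted p = 0.0244). Angptl4, a secreted inhibitor of lipoprotein lipase, rose by 0.80 (adjusted p = 0.0290). Ppard, a nuclear receptor for fatty acids, was the fourth and is named because it passed. By list, 1 of 8 lipolysis genes, 1 of 9 uptake genes, 2 of 19 PPAR genes, 0 of 14 droplet proteins and 0 of 14 genes of triglyceride synthesis passed. None of the 68 passed against naive arrays, where the differences were 0.59 for Pnpla2, 0.27 for Angptl4, 0.30 for Ppard and -0.19 for Slc27a3. Without memantine 4 h replicate 1, 2 or 3 the number called was 7, 2 and 1.

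Averaged over the 4 times, Pnpla2 alone of the 68 passed, and only with memantine (0.54, adjusted p = 0.0126, where 0.0452% of probes were called higher), but not without saline 1 h replicate 3. Abhd5, the co-activator of Pnpla2, stood at -0.26 (adjusted p = 0.291), and G0s2, its inhibitor, at 0.23 (adjusted p = 0.455). With ketamine and PCP none of the 68 passed on average, where 0.00452% and 0% of probes were called higher. At an unadjusted p under 0.05, 4185 and 3087 of all probes were found in these 2 comparisons. At 4 h ketamine gave 1 call, Slc27a3 at 0.95, and PCP none (0.0407% and 0.0158% of probes called higher). The ketamine call was lost in 14 of 60 fits that left out an array. Without saline 4 h replicate 2 both drugs gave 6 calls. In saline against naive at 4 h, where 0.181% of probes were called lower, Slc27a3 was 1.10 lower in saline (difference -1.10).

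**Figure D3:**
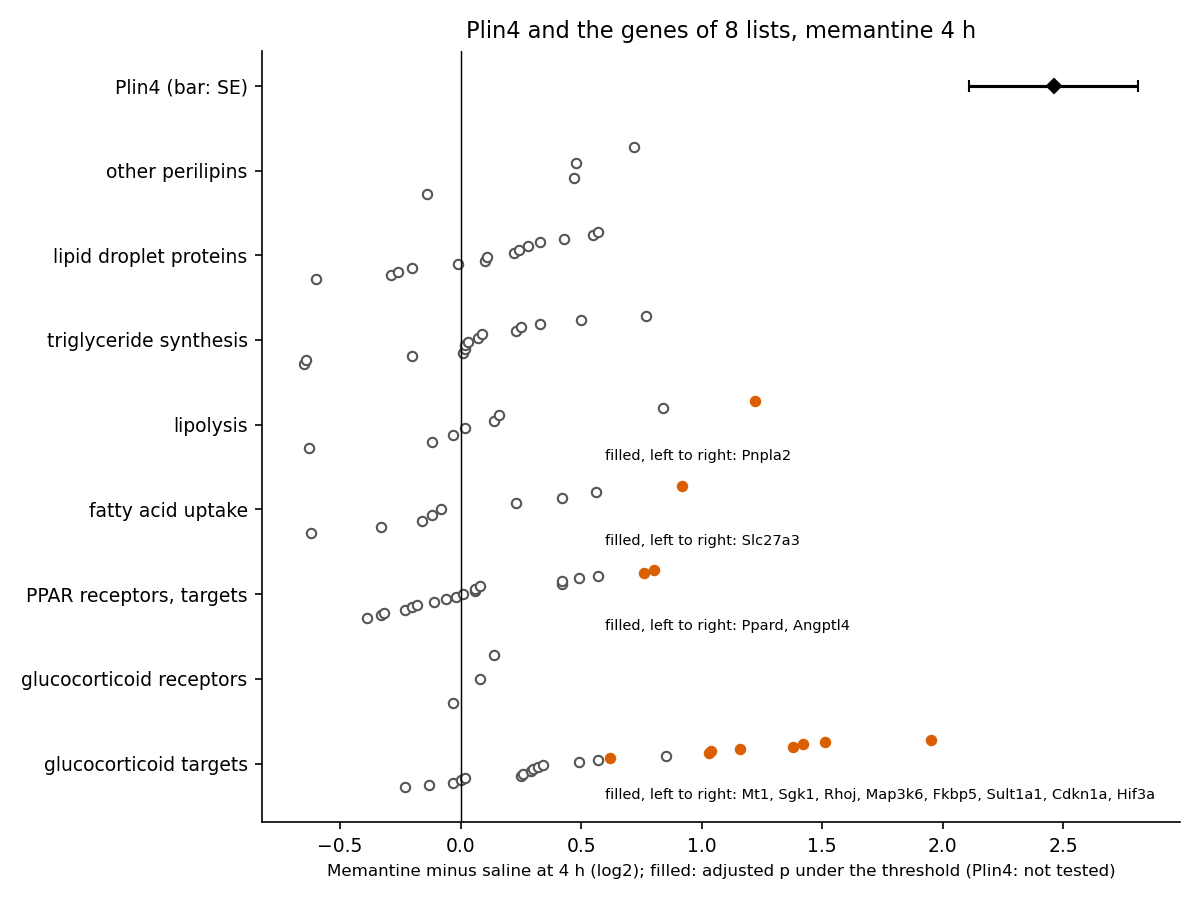
Memantine minus saline at 4 h in log2 units (horizontal axis) for Plin4 (diamond, whisker SE) and for each measured gene of 8 lists (circles, rows). Filled circles passed the adjusted threshold, and their names stand under the row. Plin4 at 2.46 lies to the right of all list genes, the nearest being Hif3a at 1.95.

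Genes known to respond to glucocorticoids, the hormones that the adrenal gland releases under stress, were read as a further list of 22, all measured. The list was chosen with earlier results of these data known. It holds many genes that the study had named as drug-responsive, partly from these arrays. These are Sgk1, Dusp1, Hif3a, Map3k6, Fkbp5, Cdkn1a, Rhoj, Sult1a1, Tsc22d3, Arrdc2, Plekhf1, Nfkbia and Per1 among others. All genes called on average below are among them, as are most of those called at 4 h. That choice favoured the counts and the median below, so that nothing is read from them about glucocorticoid response. With memantine averaged over time 6 rose, namely Sgk1, Dusp1, Cdkn1a, Hif3a, Map3k6 and Rhoj, and the median of the list was 0.40 against 0 for all probes. Sgk1, a kinase that regulates ion channels, rose by 0.81 (adjusted p = 1.63e-04), while Hif3a, a subunit of the oxygen-sensing transcription factors, rose by 0.77 (adjusted p = 0.00166). Cdkn1a, the cell-cycle inhibitor p21, rose by 0.79 (adjusted p = 0.0107). Dusp1 lost its call in 37, Rhoj in 14 and Map3k6 in 8 of 60 fits that left out an array. With 3 genes of corticosteroid receptors and activation counted in, of which 0 were called, the number called was between 2, without saline 1 h replicate 3, and 8. It was 3 without memantine 1 h replicate 1, memantine 4 h replicate 3, memantine 8 h replicate 3, saline 2 h replicate 1, saline 4 h replicate 3 or saline 8 h replicate 1. With ketamine and PCP 0 of 22 passed on average, while all 22 had a difference above 0 with each, as had 51.8% and 51.9% of all probes.

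At 4 h after memantine 8 of the 22 rose, where 0.405% of probes were called higher. Hif3a rose by 1.95 (adjusted p = 2.93e-05), Sult1a1, a phenol sulfotransferase, by 1.42 (adjusted p = 4.31e-04) and Map3k6, a stress-activated kinase, by 1.16 (adjusted p = 0.0184). The others were Sgk1, Fkbp5, Cdkn1a, Mt1 and Rhoj. The number was 4 without memantine 4 h replicate 2 or 3 and 5 without saline 4 h replicate 3. Fkbp5, which lowers the hormone affinity of the glucocorticoid receptor, was the single call of the list with ketamine at 4 h, and Rhoj, a small GTPase of endothelium, the single call with PCP. Without saline 4 h replicate 2 these counts were 2 and 3. Saline itself was lower than naive for Rhoj at 4 h (difference -1.0), and against naive arrays Rhoj differed by 0.01 with PCP and 0.04 with memantine. The receptors themselves, Nr3c1 and Nr3c2, stood at 0.08 and 0.14 with memantine at 4 h (adjusted p = 0.924 and 0.886). Against naive arrays Sult1a1 alone of the 8 passed at 4 h after memantine (1.22, adjusted p = 0.0294), while Hif3a stood at 1.08, Sgk1 at 1.06 and Fkbp5 at 0.54, and 0.00452% of probes were called higher.

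The 3 genes whose levels went most closely with Plin4 over the 60 arrays came from this list. The study had named each of them as drug-responsive. Of 18935 other genes, Hif3a (Pearson r = 0.87, Spearman rho = 0.87), Sult1a1 (0.87 and 0.86) and Map3k6 (0.73 and 0.72) were the only ones with r over 0.7, where the 99th percentile of all genes was 0.41. Without the 2 arrays farthest from the median of Plin4 their r was 0.84, 0.83 and 0.68. The arrays share time, treatment and normalization, so these are descriptions. They were followed by Rad52, a DNA repair protein (0.67), Slc2a1, the glucose transporter of the blood-brain barrier (0.65), Mfsd2a, a lysophosphatidylcholine transporter of brain endothelium (0.64), Prodh, the proline dehydrogenase (0.64) and Pnpla2 (0.63), then by Gjb6, an astrocyte connexin (0.62), Mt1, a metallothionein (0.62), Spink8 (0.60) and Pglyrp1 (0.60). The most opposite were Ncan, the proteoglycan neurocan (-0.59), Sstr5, a somatostatin receptor (-0.58), Egr1 (-0.57) and Cog6 (-0.57).

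The likeness to Hif3a, Sult1a1 and Map3k6 was also described within groups. These genes were picked for their likeness on the same arrays, which favours high values here. For deviations from the group means r was 0.75 for Hif3a, 0.69 for Sult1a1 and 0.67 for Map3k6. It fell to 0.21 for Mfsd2a and 0.12 for Spink8, whose likeness was mostly one of group means (0.89 and 0.84). Over the saline and naive arrays alone r was 0.84, 0.76 and 0.68 for the first 3 genes. In naive replicate 1 at 4 h, the uninjected array with a high Plin4 level, Hif3a stood at 8.64 against 7.73 and 8.09 in its group, Sult1a1 at 9.64 against 8.82 and 9.18, and Map3k6 at 8.14 against 7.58 and 7.71. In that array these 3 genes were thus high together with Plin4. In saline replicate 1 at 8 h, where Plin4 was the lowest of its group, Hif3a stood at 8.09 against 8.78 and 8.74.

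Sgk1 differed from Plin4 in its course. Over all arrays its r with Plin4 was 0.30, while for deviations from group means it was 0.60. Sgk1 was 1.27 above saline at 2 h after memantine (adjusted p = 0.0331, limma), where 0.00226% of probes were called higher, a call lost in 5 of 60 fits that left out an array, and its differences of 0.79 at 1 h and 0.13 at 8 h did not pass. After ketamine and PCP at 4 h, when Plin4 was high, Sgk1 stood at 11.58 and 11.82 against 11.91 after saline. It was 1.36 higher after memantine than after ketamine at this time (adjusted p = 0.00824, limma, where 0.00678% of probes were called higher). Fkbp5 and Tsc22d3, the leucine-zipper protein GILZ, each had an r of 0.53. Egr1, an activity-regulated transcription factor, had a deviation r of -0.53. Plin3 was the nearest perilipin, at 0.40.

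**Figure D4:**
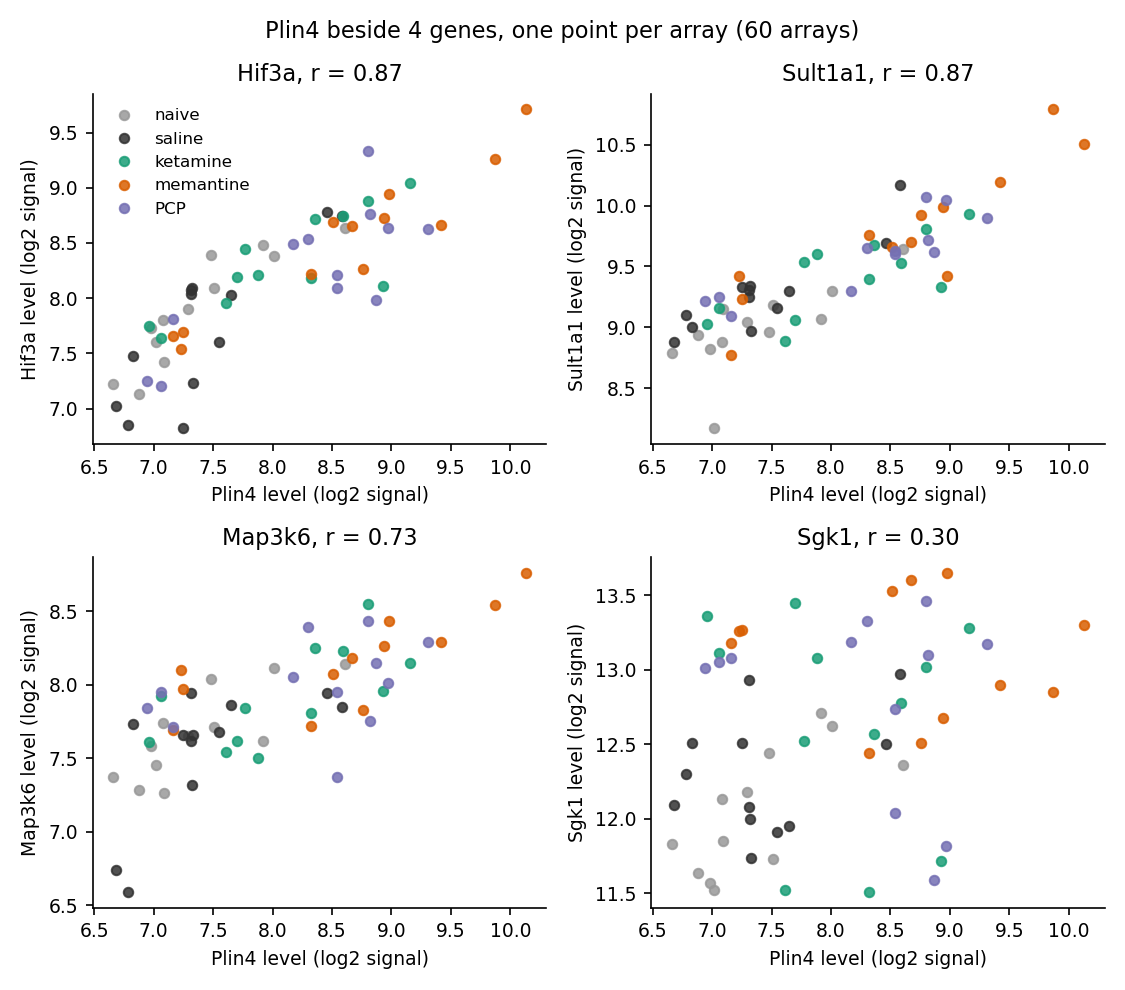
Plin4 level (horizontal axis, log2 signal) against the levels of Hif3a, Sult1a1, Map3k6 and Sgk1 (vertical axes, log2 signal), 1 point per array, coloured by treatment. The points of Hif3a and Sult1a1 rise along with Plin4 (r = 0.87 each), and those of Sgk1 scatter (r = 0.30).

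No gene beside Plin4 on chromosome 17 passed the test. Chaf1a, Ubxn6 and Hdgfl2 on the downstream side of Plin4, and Plin5, Lrg1 and Sema6b on the upstream side, were all measured and compared between each drug and saline. Their r with Plin4 lay between -0.04 (Hdgfl2) and 0.33 (Plin5). Of the 12 most alike genes 11 had a promoter in the RefSeq table. Of these, AGAACA was found in Sult1a1, AGGTCA in Map3k6 and Mfsd2a, and TATAA in Slc2a1.

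Markers of tissues in which Plin4 is abundant were not higher after memantine at 4 h, the highest Plin4 group, than after saline. Of 7 adipocyte markers 6 were measured, and 5 of these (Adipoq, Retn, Plin1, Cidec and Fabp4) lay below the array median. Their summed level was 561 to 687 on the memantine arrays at 4 h and 624 to 916 on the saline arrays, and its r with Plin4 over 60 arrays was -0.17. The 5 skeletal muscle markers summed to 975 to 1170 and to 1220 to 1380 in the same groups. The muscle sums at 4 h were thus lower after memantine without overlap, and the adipocyte sums overlapped. Of single probes, 5.72% had 3 memantine arrays below all 3 saline arrays at this time. Over 60 arrays the r of the muscle sum with Plin4 was 0.17. At 8 h the adipocyte sums ran from 639 to 840 after memantine, 638 to 873 after PCP and 612 to 667 after saline. The muscle sums were 1270 to 1470, 1210 to 1380 and 1040 to 1320 in these groups. The part of such tissue in the Plin4 levels was not tested.

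Among the cell types of the striatum, the 7 astrocyte markers summed to 67200 to 71400 on the memantine arrays at 4 h. They summed to 57000 to 63100 on the saline arrays, without overlap, and to 57800 to 65100 on the naive arrays (r = 0.26 with Plin4). This marker list includes Gjb6, which is among the 12 genes most like Plin4 and which the study had named as drug-responsive. The mean level of Gjb6 at 4 h was 12.75 after memantine and 11.88 after saline. The 5 mural cell markers summed to 3360 to 4250 on these memantine arrays and to 1620 to 2870 on the saline arrays, also without overlap (r = 0.17). The naive arrays at 4 h, with mural sums of 2510 to 3890, overlapped with memantine. Of single probes, 5.94% had 3 memantine arrays above all 3 saline arrays at this time. The part of astrocytes and mural cells in the Plin4 levels was not tested. The 6 endothelial markers overlapped between memantine and saline, at 8230 to 9630 and 7000 to 10700 (r = -0.28). The 8 choroid plexus markers ran from 2780 to 66300 over the 60 arrays and had an r of 0 with Plin4. The 8 measured markers of striatal projection neurons had mean levels at or above the 87.8th percentile and summed to 30900 to 82300, with an r of 0.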

How the data were processed

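The arrays were Illumina MouseWG-6 v2 BeadChips with striatal RNA, and groups and replicate numbers were read from the sample titles. These titles do not name a chip, and the chip numbers used here follow the order of the samples, 6 arrays to a chip. The deposited intensity values had been exported by the authors without normalization, and they come with neither detection p-values nor control probes. The deposited log2 values had been background-subtracted and quantile-normalized by the authors with beadarray, and served as an alternative. Array medians ran from 166.9 to 646.1 intensity units. With 3 arrays a group, their number limits the precision.

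In R 4.3.3, limma 3.58.1 was used to correct intensities by normexp (offset 50) and to quantile-normalize them before taking log2. Probes above the 25th percentile of their array on at least 3 arrays were kept. The model of lmFit and eBayes had a mean for each group and used all 60 arrays, and adjusted p are Benjamini-Hochberg values over 44236 probes (threshold 0.05). The scripts were tested on simulated data. The pools were taken as separate animals, so that p-values measure the spread between pools. No arrays were duplicates (highest correlation 0.982 over 1770 pairs).

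The gene, the lists and the tests were chosen with earlier results of these data known. For each gene the brightest probe was used. Named were Plin4, the perilipins, up to 4 members per list with the smallest p over the drugs and every member called in a drug factor, the 12 most and 4 least alike genes, 3 neighbours on each side, and Sgk1 and Tsc22d3. Fkbp5, Ppard, Nr3c1 and Nr3c2 were named as well where the text singles them out. Likeness was Pearson's r. Motifs were searched on both strands of the RefSeq promoters of GRCm38.p6, a table that also gave the coordinates. Alternatives covered background correction, scaling, the authors' values, filters, variance, BeadChip, replicate block, controls, samples in the fit and each array left out.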

Additional observations from a re-analysis of the deposited data

Results flagged for a closer look

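A few genes read beside Plin4 differed in their response between times or drugs by a test of that difference in limma. Fkbp5 changed with memantine differently over the 4 times (interaction adjusted p = 0.0122), from -0.51 against saline at 1 h to 1.38 at 4 h. The saline mean was 8.24 at 4 h against 9.31, 9.39 and 9.28 at 1, 2 and 8 h, and the saline arrays at 4 h include the 2 with the lowest correlation to the others. The memantine means were 8.80, 9.51, 9.62 and 9.21 in order of time, and at 4 h memantine was 0.54 above naive (adjusted p = 0.948). It was the single probe of all with such an interaction for memantine, and ketamine and PCP had 0. At 4 h Sgk1 was 1.36 higher after memantine than after ketamine (adjusted p = 0.00824), a difference as large as that of Plin4, 1.36. Sult1a1 was 1.22 higher (adjusted p = 0.0275) and Slc2a1 1.01 higher (adjusted p = 0.0417) in the same comparison. The doses were 15 and 20 mg/kg, so that drug and dose cannot be told apart.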

How the results depend on the processing

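Of 294 values of Plin4 under the alternatives other than leaving out 1 array, 278 lay within its replicate SD of 0.45 of the value reported, and no averaged drug difference from saline changed sign. The memantine difference at 4 h was 1.80 without background correction, where PCP gave 1.08 and the range of group means was 1.93. With the authors' log2 values it was 1.98 (range 2.13, 2 lipid genes called with memantine on average and 7 at 4 h), and 7 lipid genes were also called at 4 h without background correction. Median scaling gave 2.94 (range 3.17), but moved the median of all probes by 0.26 in that comparison, so that Plin4 stood 2.68 above it, and called 8968 probes, with 31 lipid and 18 glucocorticoid genes (targets and receptors) among them. Against naive arrays memantine, PCP and ketamine gave 1.95, 1.09 and 0.59 at 4 h. There 0 lipid genes were called with memantine on average or at 4 h and 1 glucocorticoid gene at 4 h, with 2 for PCP on average, and Slc27a3 turned to -0.19 with memantine (adjusted p = 0.979) and to -0.15 with ketamine (adjusted p = 1).

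With only the drug and saline arrays, memantine called 0 lipid genes and 2 glucocorticoid genes, on average and at 4 h alike. The filter on all 60 arrays gave 2 lipid genes on average and 7 at 4 h. With the presumed BeadChip as a block 1 lipid and 3 glucocorticoid genes were called at 4 h. Chosen after seeing the data, pooled controls gave 1 lipid and 4 glucocorticoid genes at 4 h and 1 glucocorticoid gene for PCP on average, and leaving out saline 4 h replicates 1 and 3 gave 0 lipid and 3 glucocorticoid genes on average as at 4 h.

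Leaving out each array in turn moved the averaged Plin4 difference between 1.08 and 1.27 for memantine, 0.77 and 0.93 for PCP and 0.56 and 0.76 for ketamine. Calls with memantine ran from 0 to 2 lipid and 2 to 8 glucocorticoid genes on average, and from 1 to 7 and 4 to 10 at 4 h. With ketamine they ran from 0 to 1 and 0 to 2, with PCP from 0 to 1 each, and for saline against naive from 0 to 1 lipid genes. The cause of these changes was not tested. Replicate numbers did not pair the samples (r over 0.1 in 2 of 36 pairs of equal number, from -0.24 to 0.15), and with the replicate block the averaged differences were 1.19, 0.87 and 0.68 and 1 call was lost.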
